A study of Saccharomyces cerevisiae with 6 samples.

Results

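TDH3, GPM1, ENO2 and CDC19 are the major yeast genes of the lower part of glycolysis, apart from PGK1. They were taken by name from the deposited table and make up 4 of its 5625 gene models, each with 1 model. RNA was sequenced from 3 strains of Saccharomyces cerevisiae, with 2 aerobic cultures of each. The growth text names bioreactor cultures (SMD) for IMX605 and IMX606 and does not mention IMX372. In IMX605 chromosome V carries the genes of glycolysis as 1 cluster, and in IMX606 chromosome IX does. In IMX372, which the labels also call MG, the major paralogs remain at their native loci. From general knowledge of these strains, MG stands for a minimal glycolysis strain without the minor paralogs, and the single-locus strains were built from it. The labels do not list the relocated genes, do not name the promoters that drive them and do not say how many clones of a strain were grown. The libraries are named R12 and R7 (IMX605), R13 and R8 (IMX606), and DSE001 and DSE002 (IMX372).

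Values are FPKM, read counts scaled to gene length and to the library's total on genes. The reads behind them were recovered as whole numbers, 20124583 and 19490736 in IMX605, 18754741 and 21370278 in IMX606, and 70510681 and 19100242 in IMX372. The IMX372 libraries are cited in the labels as samples of an earlier deposit, so strain and library set cannot be told apart in any comparison with IMX372. Nothing measured RNA per cell, and in bulk RNA fewer cells and less RNA per cell cannot be told apart. The changes below are therefore changes in a gene's share of the reads.

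Lower glycolysis is the part of the pathway that earns ATP and leads to pyruvate. TDH3 encodes the main glyceraldehyde-3-phosphate dehydrogenase, which passes electrons to NAD. Phosphoglycerate kinase, from PGK1, then makes ATP. GPM1 encodes phosphoglycerate mutase, ENO2 the enolase that dominates during growth on glucose, and CDC19 the pyruvate kinase that makes the last ATP. The promoters of these genes are textbook targets of Rap1 and Gcr1, the activators of glycolytic transcription in yeast, and TDH3 is among the most abundant yeast messages.

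Because the 4 genes are known for this shared control, their upstream sequence was read from the RefSeq genome of the laboratory strain S288C (assembly R64). The deposited coordinates are on another laboratory strain, CEN.PK113-7D, so the sequences stand for the native promoters and were not checked against the relocated copies. The windows covered 600 bases, beginning 700 bases before the start codon. On the deposited coordinates YHR173C lies 245 bases before ENO2, NNR2 527 bases before GPM1 and PDX1 698 bases before TDH3. The windows of ENO2 and GPM1 thus run into these neighbouring genes, and that of TDH3 reaches the edge of PDX1. The Rap1-type letters, CACCC and ACA with any 2 bases between them, were searched on both strands and lay in 160 of 6005 windows of all genes (2.66%). They occurred once each in the windows of TDH3, GPM1 and CDC19 and not in that of ENO2. The Gcr1-type letters CTTCC, also on both strands, lay in 73.0% of all windows, with 0 matches for TDH3, 2 for GPM1, 3 for ENO2 and 4 for CDC19. The 60 bases around each Rap1-type match follow on the strand of the gene, with matches to either motif in capitals. They come from chrVII:884277-884336 (minus strand), chrXI:164736-164795 (minus strand) and chrI:71118-71177 (plus strand).
TDH3: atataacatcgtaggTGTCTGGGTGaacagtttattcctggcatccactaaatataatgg
GPM1: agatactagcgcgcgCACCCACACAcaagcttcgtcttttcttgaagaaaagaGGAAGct
CDC19: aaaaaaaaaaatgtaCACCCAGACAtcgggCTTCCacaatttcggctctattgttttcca
The match of TDH3 lies on the opposite strand, 511 bases before the start codon, where those of GPM1 and CDC19 begin at 395 and 653 bases. In GPM1 and CDC19 a CTTCC match lies within the same 60 bases.

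All 4 transcripts were higher in the cultures of both single-locus strains than in those of IMX372, with no overlap between cultures. The same separation held for 23.3% of all genes tested. TDH3 (chromosome VII, 909094 to 910092 of the CEN.PK113-7D sequences, minus strand, systematic name YGR192C) had 18952 and 20442 FPKM in IMX605, 18635 and 19276 FPKM in IMX606, and 14079 and 10865 FPKM in IMX372. Its means were 1.58-fold and 1.52-fold that of IMX372, log2 changes of 0.67 in IMX605 (SE 0.12, adjusted p = 0.00149) and 0.62 in IMX606 (SE 0.12, adjusted p = 0.00314) by limma over all genes. The lowest single-locus culture stood above the highest IMX372 culture by more than the IMX372 cultures differed among themselves.

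**Figure D1:**
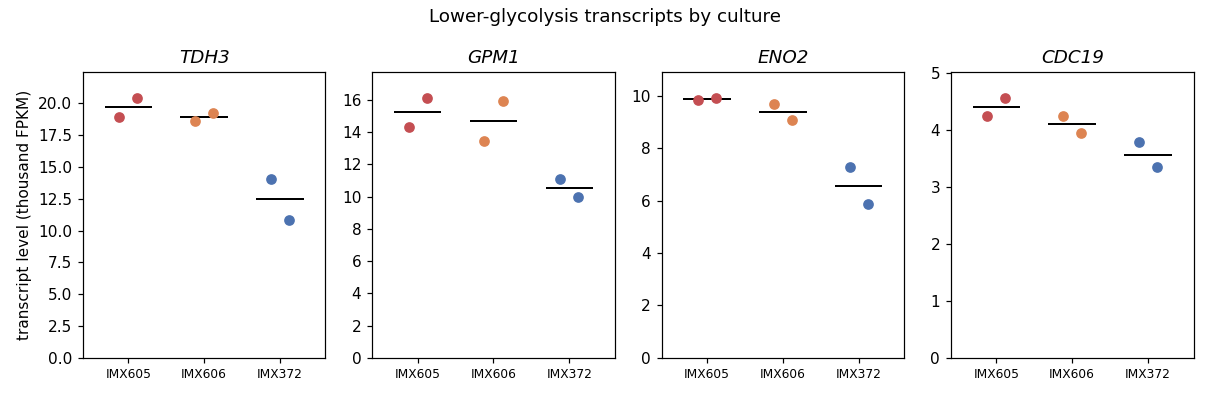
Transcript level of TDH3, GPM1, ENO2 and CDC19 in units of 1000 FPKM, with a point for each culture, a line at the mean of each strain and an axis that starts at 0. In each panel the points of IMX605 and IMX606 lie above both points of IMX372, and CDC19 shows the smallest gap, with 3942 FPKM in its lowest single-locus culture and 3786 FPKM in its highest IMX372 culture.

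GPM1 (chromosome XI, 170078 to 170821, minus strand, YKL152C) had 14335 and 16127 FPKM in IMX605, 13466 and 15936 FPKM in IMX606, and 11115 and 10004 FPKM in IMX372. The 2 cultures of each single-locus strain lay further apart than for the other 3 genes, yet both stayed above IMX372. The log2 changes were 0.53 (SE 0.11, adjusted p = 0.00414) in IMX605 and 0.47 (SE 0.11, adjusted p = 0.00931) in IMX606 by limma. ENO2 (chromosome VIII, 451685 to 452998, plus strand, YHR174W) had 9861 and 9934 FPKM in IMX605, 9715 and 9076 FPKM in IMX606, and 7293 and 5864 FPKM in IMX372. The 4 single-locus cultures of ENO2 spanned 1.09-fold, where the IMX372 cultures differed by 1.24-fold. Its changes were 0.60 (SE 0.11, adjusted p = 0.00203) in IMX605 and 0.52 (SE 0.11, adjusted p = 0.00565) in IMX606 by limma. Without IMX372 DSE002 the GPM1 changes no longer passed, at 0.45 in IMX605 (adjusted p = 0.0663) and 0.40 in IMX606 (0.110), nor did the ENO2 change in IMX606 (0.36, 0.0705). Leaving out IMX606 R8 also ended the GPM1 call in IMX606 (0.35, 0.0651).

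CDC19 (chromosome I, 61012 to 62514, plus strand, YAL038W) had the smallest change of the 4. It read 4234 and 4558 FPKM in IMX605, 4244 and 3942 FPKM in IMX606, and 3786 and 3343 FPKM in IMX372. It averaged 4396 ± 229.5 FPKM in the IMX605 cultures, 4093 ± 213 FPKM in the IMX606 cultures and 3564 ± 313 FPKM in the IMX372 cultures (SD, n = 2 per strain). The change was 0.30 in IMX605 (SE 0.10, adjusted p = 0.0394) and 0.20 in IMX606 (95% interval -0.02 to 0.42, adjusted p = 0.165) by limma, and only the IMX605 change passed. That call held in 8 of 16 other settings, with adjusted p from 0.0224 to 0.235. Among the libraries, leaving out IMX605 R12 (adjusted p = 0.0694), IMX605 R7 (0.212) or IMX372 DSE002 (0.235) ended it. In IMX606 the change passed in 0 of 16.

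With both single-locus strains averaged and set against IMX372, all 4 genes rose. The log2 changes were 0.64 for TDH3 (95% interval 0.42 to 0.87, adjusted p = 0.000617), 0.56 for ENO2 (0.35 to 0.77, adjusted p = 0.00100), 0.50 for GPM1 (0.29 to 0.71, adjusted p = 0.00205) and 0.25 for CDC19 (0.06 to 0.44, adjusted p = 0.0415) by limma. These 4 calls stand against 16.2% of all 5459 genes tested that were called higher in that comparison (34.3% in either direction). Cultures of both strains lay above those of IMX372 for 23.3% of all genes, those of IMX605 alone for 31.5% and those of IMX606 alone for 25.7%. The CDC19 call for both strains held in 8 of 15 other settings and ended without IMX605 R7 (adjusted p = 0.105), IMX606 R13 (0.0919) or IMX372 DSE002 (0.314). In IMX605 alone 4 of 4 rose (15% of all genes called higher, 30.0% in either direction), and in IMX606 3 of 4 (11.1% higher, 23.9% in either direction). In IMX606 604 genes were called higher and 700 lower over the whole table, a split of 740 and 557 with median-of-ratios factors. Among the 212 genes that averaged 1000 FPKM or more, 25.5% were called higher and 32.1% lower in IMX605, and 23.1% higher and 28.3% lower in IMX606. With both strains together 25.9% of these were higher. The median change over the 4 genes was 0.56 in IMX605 and 0.50 in IMX606, where the median of all genes tested was -0.03 and -0.06. Without IMX372 DSE002 the counts fell to 2 of 4 in IMX605 (TDH3 and ENO2), 1 of 4 in IMX606 (TDH3) and 2 of 4 for both strains together.

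**Figure D2:**
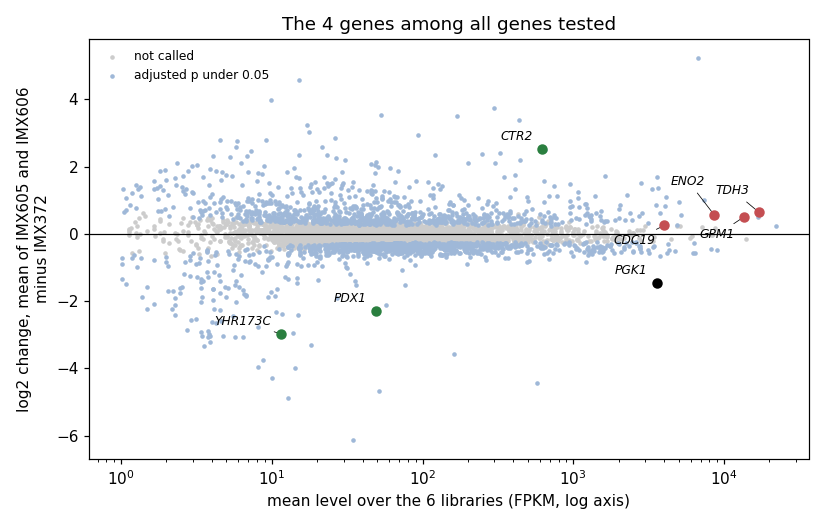
Log2 change (mean of IMX605 and IMX606 minus IMX372) against mean level on a log axis, with a point for each of the 5459 genes tested and the called ones in blue. The 4 genes (red) lie at the right edge among the most abundant transcripts, at changes of 0.25 to 0.64, and PGK1 (black) at -1.46. Green points are 3 genes beside native loci.

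The strains were also set against each other to ask whether the position of the single locus mattered. IMX605 minus IMX606 was 0.05 for TDH3 (95% interval -0.20 to 0.31), 0.05 for GPM1 (-0.19 to 0.29), 0.08 for ENO2 (-0.16 to 0.32) and 0.10 for CDC19 (-0.12 to 0.32). Of the 4, limma called 0, voom on the recovered reads called 0, and 0 had an unadjusted p under 0.05, in a comparison where 0.202% of all genes were called (0.0733% higher). The cultures of the 2 strains overlapped for TDH3, GPM1 and CDC19. Those of ENO2 did not, with 9861 and 9934 FPKM in IMX605 and 9715 and 9076 FPKM in IMX606, as held for 15.7% of all genes in that direction. The intervals leave room for differences of up to 0.32 on the log2 scale.

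The order of the levels per length was the same in each library, TDH3 above GPM1 above ENO2 above CDC19. TDH3 ranked at places 2 and 3 of all gene models in the single-locus libraries and at places 4 and 5 in IMX372. ENO2 ranked at places 6 and 7 in the single-locus libraries and at places 14 and 18 in IMX372. GPM1 held place 4 in the single-locus libraries, against 7 and 6 in IMX372, and CDC19 places 31 to 35, against 36 and 40. Across cultures, neighbours in this order overlapped only in IMX372, where the lower TDH3 culture (10865 FPKM) lay below the higher GPM1 culture (11115 FPKM). TDH3 stood 4.39 to 4.89 times above CDC19 in the single-locus libraries and 3.25 to 3.72 times in IMX372.

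Added up, the 4 transcripts reached 47382 and 51061 FPKM in IMX605, 46061 and 48231 FPKM in IMX606, and 36273 and 30076 FPKM in IMX372. They took 4.89% and 5.23% of the reads on genes in IMX605, 4.78% and 4.90% in IMX606, and 3.76% and 3.10% in IMX372. The sums of IMX605 and IMX606 exceeded that of IMX372 by 16047 and 13971 FPKM. Two-sided exact permutation of the cultures gave p = 0.333 for either strain and p = 0.133 for both together. These are the smallest p that this test, which doubles the smaller tail, allows at these group sizes. IMX605 exceeded IMX606 by 2075 FPKM (exact permutation p = 0.667). Of the summed level of 13 genes from hexokinase to alcohol dehydrogenase, the 4 made up 55.3% ± 0.0906 of it in IMX605 cultures, 54.9% ± 0.00432 in IMX606 cultures and 42.2% ± 0.365 in IMX372 cultures (SD, n = 2 per strain). The other 9 genes summed to 39833 ± 1959, 38704 ± 1253 and 45382 ± 5321 FPKM in IMX605, IMX606 and IMX372, so the share moved with both parts. The sums nearly met, at 41219 FPKM in IMX605 R7 and 41620 FPKM in IMX372 DSE002. The 9 genes did not fall as a block. PGK1 averaged 2107, 2416 and 6225 FPKM and ADH1 7334, 7179 and 10034 FPKM in that order of strains. PGI1 and FBA1 means were also lower in both single-locus strains, those of PFK1, PFK2 and PDC1 higher, and HXK2 and TPI1 mixed.

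A ratio between 2 genes of a library does not depend on how that library was scaled, and ratios between neighbouring steps showed where the 4 genes moved together. GPM1 stood 1.45 and 1.62 times above ENO2 in IMX605, 1.39 and 1.76 times in IMX606, and 1.52 and 1.71 times in IMX372. TDH3 stood 1.92 and 2.06 times above ENO2 in IMX605, 1.92 and 2.12 times in IMX606, and 1.93 and 1.85 times in IMX372. For these ratios the strains overlapped, and the log2 differences from IMX372 lay between -0.07 and 0.09. ENO2 over CDC19 was 2.33 and 2.18 in IMX605, 2.29 and 2.30 in IMX606, and 1.93 and 1.75 in IMX372. That ratio was higher in all 4 single-locus cultures, by 0.29 in IMX605 and 0.32 in IMX606 on the log2 scale.

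Of the 6 ratios, those with PGK1 differed most between strains. TDH3 over PGK1 was 9.34 and 9.36 in IMX605, 8.69 and 7.17 in IMX606, and 2.05 and 1.94 in IMX372. PGK1 over GPM1 was 0.142 and 0.135 in IMX605, 0.159 and 0.169 in IMX606, and 0.617 and 0.559 in IMX372. The log2 differences from IMX372 were 2.23 and 1.98 for TDH3 over PGK1 and -2.08 and -1.84 for PGK1 over GPM1. CDC19 over PDC1, the pyruvate decarboxylase gene of the next step, was 0.649 and 0.791 in IMX605, 0.595 and 0.996 in IMX606, and 0.879 and 0.954 in IMX372. IMX605 lay below IMX372 for this ratio and IMX606 spanned it. Over 6 ratios and 4 comparisons (24 exact permutation tests), the smallest p was 0.133 for both strains together and the smallest adjusted p was 0.667, so none could pass with cultures in this number.

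**Figure D3:**
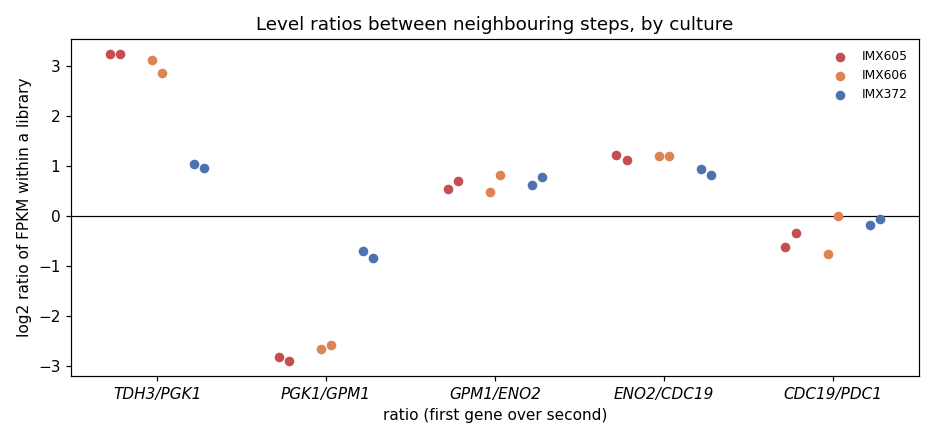
Log2 ratio of FPKM between neighbouring steps within each library, with a point for each culture of IMX605, IMX606 and IMX372. The ratios that contain PGK1 separate the single-locus strains from IMX372 (TDH3/PGK1 by 2.23 and 1.98, PGK1/GPM1 by -2.08 and -1.84), GPM1/ENO2 overlaps between strains, and ENO2/CDC19 is 0.29 to 0.32 higher in the single-locus strains.

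Of the 9 other pathway genes, 3 rose and 2 fell in IMX605 (15% of all genes higher and 15% lower), and 2 rose and 2 fell in IMX606 (11.1% higher and 12.8% lower). In IMX605 PFK1, PFK2 (phosphofructokinase subunits) and PDC1 rose, PGK1 and ADH1 (alcohol dehydrogenase) fell, and HXK2, PGI1, FBA1 and TPI1 did not pass. In IMX606 PFK1 and PFK2 rose, PGK1 and ADH1 fell, and the remaining 5 did not pass. Among these, PDC1 differed widely between the IMX606 cultures, with 7136 FPKM in R13 and 3957 FPKM in R8, against 4307 and 3503 FPKM in IMX372. Between IMX605 and IMX606 limma called 0 of the 9 genes. The median change of the 9 was -0.02 in IMX605 and -0.13 in IMX606. Only the PGK1 calls held in each setting tried. Of the 10 settings that left out no single library, the ADH1 calls held in 7 in IMX605 and 8 in IMX606. In IMX605 that of PDC1 held in 7 of the 10 and that of PFK1 in 9. The PFK2 calls, and that of PFK1 in IMX606, held in all 10. FBA1, which did not pass above, was called lower in 1 of the 10 in each strain. The PFK1 call in IMX605 ended without any 1 of IMX605 R12, IMX605 R7, IMX372 DSE001 and IMX372 DSE002 (adjusted p from 0.0538 to 0.192), and that of PFK2 without R12, R7 or DSE002 (0.0615 to 0.125). In IMX606 both ended without DSE002 alone (PFK1 0.51, 0.0880, and PFK2 0.45, 0.0660). The PDC1 call ended without IMX605 R12, DSE001 or DSE002 (0.0882 to 0.276). The ADH1 calls ended without DSE001 (0.186 in IMX605 and 0.168 in IMX606), and without R12 in IMX605 (0.136) or R13 in IMX606 (0.0681).

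**Figure D4:**
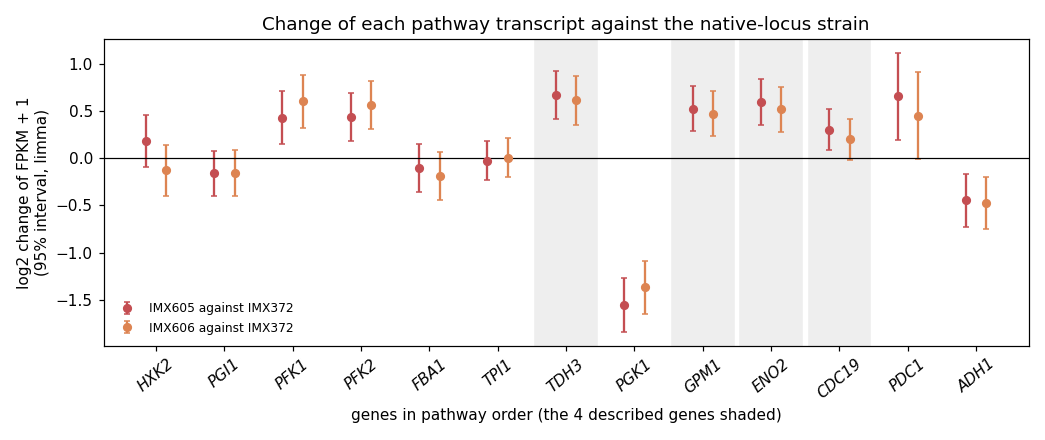
Log2 change of FPKM + 1 with its 95% interval from limma for 13 genes in pathway order, in IMX605 and IMX606 against IMX372, with the 4 genes of lower glycolysis shaded. TDH3, GPM1 and ENO2 have intervals above 0 in both strains, the CDC19 interval in IMX606 reaches -0.02, and PGK1 between them lies at -1.56 and -1.37.

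The 4 genes have paralogs that can share reads with them. In the RefSeq sequences the coding region of TDH3 is 95.8% identical to TDH2, with an identical run of 173 bases, and 88.9% identical to TDH1. ENO2 is 94.8% identical to ENO1, with a run of 112 bases. CDC19 is 67.5% identical to PYK2 and GPM1 50.4% to GPM2, with runs of at most 14 bases. TDH1 and TDH2 together held 2.98 and 10.2 FPKM in IMX605, 9.87 and 8.06 FPKM in IMX606, and 26.8 and 46.2 FPKM in IMX372. TDH3 therefore held 99.98% and 99.95% of the FPKM assigned to the 3 genes in IMX605, 99.95% and 99.96% in IMX606, and 99.81% and 99.58% in IMX372. How the counting treated reads that match several copies is not stated, and its part in these levels was not tested. The level assigned to TDH2 was 1.64 and 7.96 FPKM in IMX605, 6.89 and 6.42 FPKM in IMX606, and 23.1 and 43.4 FPKM in IMX372. Its log2 changes were -2.75 in IMX605 (adjusted p = 0.000789) and -2.10 in IMX606 (adjusted p = 0.00527) by limma. The IMX606 call ended without IMX372 DSE002 (-1.65). It held in 9 of the 10 settings that left out no single library. The assignment of these reads is uncertain because of the near-identical copy. From general knowledge the minor paralogs are absent from these strains, and then these values would not be expression of TDH1 or TDH2. The source of the reads was not tested.

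For ENO2, GPM1 and CDC19 the lowest share of their own family's level in any library was 99.88%, that of ENO2 in IMX605 R12. The enolase-related genes, 2 models of ERR2 and 1 of ERR3, had 1.70 to 3.51 FPKM in IMX605, 1.34 to 2.29 FPKM in IMX606 and 0.0797 to 0.255 FPKM in IMX372. In IMX372 these are 2 to 22 reads a model. All 3 models were called higher in both strains, with log2 changes on the FPKM + 1 scale of 1.33 to 1.81 in IMX605 and 1.08 to 1.39 in IMX606, and the split among them is uncertain, since ERR2 and ERR3 are 99.1% identical. At these low levels the pseudocount sets the size. Over all settings the changes ran from 0.42 to 3.94 in IMX605 and from 0.32 to 3.66 in IMX606. In IMX606 the ERR3 call ended without IMX372 DSE001 (1.09, adjusted p = 0.0587) or DSE002 (1.07, 0.0811), and that of ERR2 model 1 without DSE002 (1.24, 0.0692). ENO1 and TDH1 did not pass, with 2.93 to 4.88 and 1.34 to 2.26 FPKM in IMX605. GPM2 and PYK2 stayed under the filter of a mean of 1 FPKM. In all, 6 of the 8 minor paralog models were tested, and 3 rose and 1 fell in either strain, beside 15% of all genes higher and 15% lower in IMX605 and 11.1% and 12.8% in IMX606. For any of these genes that the strains lack, the values would describe assigned reads only.

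The intermediates of lower glycolysis feed other pathways, and 16 genes that draw on 3-phosphoglycerate, phosphoenolpyruvate or pyruvate were followed. Of these 5 rose and 3 fell in IMX605, and 5 rose and 4 fell in IMX606, where 15% of all genes were called higher and 15% lower in IMX605, and 11.1% higher and 12.8% lower in IMX606. The genes that fell include PDX1 in both strains, which lies beside the native TDH3 locus and is described below with the neighbouring genes. PYC1 and PYC2, the pyruvate carboxylase genes that turn pyruvate into oxaloacetate, both rose. PYC1 had 230.0 and 244 FPKM in IMX605, 240.1 and 232 FPKM in IMX606, and 137 and 122 FPKM in IMX372, log2 changes of 0.86 and 0.86 (adjusted p = 0.000113 and 0.000132 by limma). PYC2 rose by 0.57 in both (adjusted p = 0.00314 and 0.00389). The genes are 85.1% identical with a shared run of 200 bases, so the split of reads between them is uncertain. MPC2, a subunit of the mitochondrial pyruvate carrier, had 2939 and 3178 FPKM in IMX605, 2891 and 3119 FPKM in IMX606, and 1997 and 2181 FPKM in IMX372. Its changes were 0.55 and 0.52, and its calls, like those of PYC1 and PYC2, held in each setting tried. The subunit gene MPC3 rose too, by 0.64 and 0.61.

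At the branch to serine the genes of paired isoenzymes changed in opposite directions. SER33, a 3-phosphoglycerate dehydrogenase gene, fell to 499.9 and 528 FPKM in IMX605 and 533 and 618 FPKM in IMX606, against 819 and 834 FPKM in IMX372. SER3, for the same reaction, had 456 and 524 FPKM in IMX605, 438 and 579 FPKM in IMX606, and 354 and 368 FPKM in IMX372. The SER33 changes were -0.68 (adjusted p = 0.000623) and -0.53 (adjusted p = 0.00413) by limma. SER3 changed by 0.44 (adjusted p = 0.0290) and 0.48 (adjusted p = 0.0234). Their coding regions are 82.7% identical, with a run of 56 bases. At the branch to aromatic amino acids ARO4, a DAHP synthase gene that uses phosphoenolpyruvate, fell by 0.62 and 0.49 on the log2 scale, while ARO3, for the same reaction, changed by 0.18 (adjusted p = 0.213) and 0.17 (0.247). SER2 was called lower in IMX606 (-0.29, adjusted p = 0.0491, held in 5 of 16 other settings) and not in IMX605 (-0.24, adjusted p = 0.0759), and IMX605 minus IMX606 was 0.05 (adjusted p = 0.998). In single-library tests SER3 and MPC3 lost their calls in both strains without IMX372 DSE001 or DSE002, in IMX605 without R7 and in IMX606 without R8, with adjusted p of at most 0.186 over all settings. The ARO4 call in IMX606 ended without IMX372 DSE002 (-0.50, 0.0522).

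Of 6 regulators of glycolytic transcription, none rose in IMX605 and 2 fell, RAP1 by 0.36 (adjusted p = 0.0420) and ABF1 by 0.32 (adjusted p = 0.0436) on the log2 scale by limma, where 15% of all genes were called lower and 15% higher. In IMX606 limma called 0 of the 6 (23.9% of all genes in either direction), while 2 had an unadjusted p under 0.05 and voom called 1. RAP1 had 40.9 and 34.2 FPKM in IMX605, 41.7 and 45.4 FPKM in IMX606, and 50.01 and 47.1 FPKM in IMX372. GCR1 had 59.6 and 67.5 FPKM in IMX605, 57.3 and 69.2 FPKM in IMX606, and 46.4 and 52.7 FPKM in IMX372. It was above IMX372 in all 4 cultures, as were 23.3% of all genes. The GCR1 change was 0.35 in IMX605 (adjusted p = 0.0582) and 0.34 in IMX606 (adjusted p = 0.0755) by limma. With both strains together limma gave 0.35 (adjusted p = 0.0322). In that last comparison ABF1 was called lower (-0.28, adjusted p = 0.0357 by limma) and RAP1 was not called. Of all genes, 16.2% were called higher in it and 18.1% lower. Between IMX605 and IMX606 limma called 0 of the 6 regulators. GCR2, TYE7 and REB1 did not pass in any of these comparisons. The RAP1 and ABF1 calls each held in 9 of 16 other settings, and each ended without IMX605 R7, IMX372 DSE001 or IMX372 DSE002 (adjusted p from 0.0907 to 0.340), that of ABF1 also without IMX605 R12 (0.137). The GCR1 call for both strains held in 10 of 15, with adjusted p from 0.00745 to 0.201, and ended without IMX605 R7 (0.0986), IMX606 R8 (0.0552), IMX372 DSE001 (0.201) or IMX372 DSE002 (0.0710). That of ABF1 for both strains held in 8 of 15 (0.0194 to 0.132), and of the single libraries only leaving out IMX606 R8 kept it.

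The nearest gene on each side of the 4 native positions was followed too, and 3 of these 8, beside ENO2 and TDH3, had log2 changes beyond 2 in either direction, as did 1.63% of all genes in IMX605 and 1.48% in IMX606. CTR2, a vacuolar copper transporter gene that starts 231 bases after ENO2 on the same strand, had 882 and 813 FPKM in IMX605, 857 and 864 FPKM in IMX606, and 153 and 143 FPKM in IMX372. That was 5.72-fold and 5.81-fold (log2 changes 2.51 and 2.53). YHR173C, 245 bases before ENO2 on the opposite strand, had 2.23 and 3.27 FPKM in IMX605, 2.996 and 2.63 FPKM in IMX606, and 32.3 and 25.1 FPKM in IMX372. PDX1, a component of the pyruvate dehydrogenase complex, lies 698 bases before TDH3. It fell to 17.2 and 20.01 FPKM in IMX605 and 19.3 and 26.8 FPKM in IMX606, against 104 and 107 FPKM in IMX372, 17.7% and 21.9% of the IMX372 mean. The calls of these 3 genes held in each setting tried, and no culture of the single-locus strains overlapped with IMX372. Such separation in the higher direction held for 23.3% of all genes, and its share in the lower direction was not counted. HIP1, the histidine permease gene on the other side of TDH3, did not pass (-0.16 and 0.03).

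Beside GPM1, YKL154W, on the downstream side, fell by 0.60 and 0.50 on the log2 scale and NNR2 rose by 0.54 and 0.39. Beside CDC19, CYC3 (0.55) and YAL037W (0.49) were called in IMX605 and not in IMX606 (0.43 and 0.13). Their differences between IMX605 and IMX606 were 0.12 and 0.36 (adjusted p = 0.998 each). For CYC3 the IMX372 libraries stood apart, with 142.5 FPKM in DSE001 and 84.5 FPKM in DSE002, and without DSE002 the change was 0.18 (adjusted p = 0.337). Its call held in 8 of 16 other settings, and among the libraries it also ended without IMX605 R12 (0.0926) or R7 (0.134). The sources used here do not give the strand setting of the counting, so for YHR173C reads of the opposite strand cannot be told apart from its own. YKL154W in IMX606 (-0.44, adjusted p = 0.05001) and NNR2 in both strains (0.42, 0.0933, and 0.27, 0.264) lost their calls without IMX372 DSE002. Without IMX605 R7 those of NNR2 (0.40, 0.119) and YAL037W (0.32, 0.260) in IMX605 ended, and that of YAL037W ended without either IMX372 library (0.41, 0.139, and 0.58, 0.0706). The NNR2 call in IMX606 held in 5 of 16 other settings, and among the single libraries only leaving out IMX372 DSE001 kept it.

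**Figure D5:**
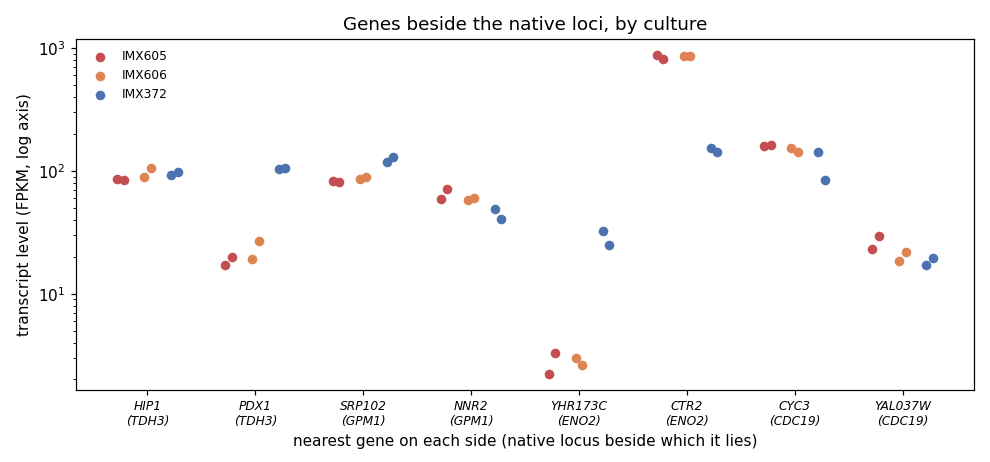
Transcript level in FPKM on a log axis of the nearest gene on each side of the native positions of the 4 genes, with a point for each culture of IMX605, IMX606 and IMX372. CTR2 lies at 813 to 882 FPKM in the single-locus strains and at 143 to 153 FPKM in IMX372, and PDX1 and YHR173C lie lower in the single-locus strains.

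The profile of each gene over the 6 libraries was compared with those of the 1608 other genes that averaged 100 FPKM or more. Likeness was the root mean square distance between log2(FPKM + 1) profiles, each centred on its own mean. Nearest to ENO2 were ZWF1, glucose-6-phosphate dehydrogenase (0.03), CCW12, a cell wall mannoprotein (0.05), and TIM23 of mitochondrial protein import (0.06). Nearest to TDH3 were YJR112W-A (0.06), ENO2 (0.07) and OST4, an oligosaccharyltransferase subunit (0.07). Nearest to GPM1 were the hexose transporter gene HXT3 (0.04), PEX21 (0.06) and MAS2 (0.06), and nearest to CDC19 were TIM44 (0.02), TPM1 (0.04) and ISU2 (0.04). Of the pairs among the 4 genes, TDH3 and ENO2 were closest (0.07), ENO2 holding place 2 of 1608 for TDH3. TDH3 and CDC19 were farthest (0.20), at place 138 of 1608 for TDH3 and at place 672 for CDC19. From CDC19 the other members stood at places 377 (ENO2) and 395 (GPM1). The 6 libraries are 3 pairs of cultures, so these distances describe these libraries and were not tested.

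Between cultures of a strain the genes also moved. In IMX372 all 4 read higher in DSE001 than in DSE002, by 0.37 for TDH3, 0.31 for ENO2, 0.18 for CDC19 and 0.15 for GPM1 on the log2 scale, where the median of all genes was -0.08 and the middle 90% of genes ran from -0.36 to 0.27. In IMX605 all 4 were lower in R12 than in R7, by 0.17 for GPM1, 0.11 for TDH3, 0.11 for CDC19 and 0.01 for ENO2. The median of all genes was -0.04 there too, and the middle 90% ran from -0.37 to 0.18, so all 4 lay within it. In IMX606 GPM1 (-0.24) and TDH3 (-0.05) were lower in R13 than in R8, and ENO2 (0.10) and CDC19 (0.11) higher. The median of all genes in that strain was -0.04, with the middle 90% from -0.40 to 0.38. The counting error is small beside these differences of the 4 genes, apart from that of ENO2 in IMX605 (0.01). Each of the 4 had between 95967 and 991742 reads in a library.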

How the data were processed

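The authors deposited FPKM values, 1 table of 5625 gene models by 6 libraries on CEN.PK113-7D sequences. Tools listed without roles in the submitters' processing notes are featureCounts, STAR 2.5.4a, DESeq2, SAMtools and edgeR. Sources used here do not give the build name or strand setting. All values were whole multiples of a step per library (tolerance 0.01), which gave whole reads. A floor of 3 reads at 1 kb is 0.0425 to 0.160 FPKM and, like all counting limits, covers counting error only. Names came from the systematic names through the RefSeq table (5550 matched).

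Log2(FPKM + 1) was fitted for the 5459 genes averaging 1 FPKM or more (166 lay below) with limma 3.58.1 (R 4.3.3), 1 mean per strain and an intensity trend, with calls at p under 0.05 after Benjamini-Hochberg adjustment. Ratios and sums were tested by two-sided exact permutation (scipy 1.17.1). Motifs and identities were computed with Biopython 1.88. Named genes were the 4 genes, their paralogs, the pathway, branch and regulator lists, the nearest gene on each side, and the 3 nearest profiles of each gene. Members and lists were chosen with earlier results of these data known. The cultures are labelled biological duplicates. Alternatives were pseudocounts of 0.1 and 5, other filters and scalings, voom, fits of only the strains compared, no trend, and each library left out.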

Additional observations from a re-analysis of the deposited data

How the results depend on the processing

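Of the 4 genes, TDH3 in both strains and ENO2 in IMX605 kept their calls in all 16 other settings, with TDH3 changes of 0.37 to 0.86 in IMX605 and 0.43 to 0.80 in IMX606, the lowest under quantile normalization. GPM1 in IMX606 also lost its call without the filter on low values (adjusted p = 0.0617), and CDC19 in IMX605 without the filter (0.0780), with median-of-ratios factors (0.0623), equal sums (0.0616) or quantile normalization (0.0576), and without the trend (0.0800). For both strains CDC19 lost its call without the filter (0.0794), with median-of-ratios factors (0.0558) or equal sums (0.0623), and without the trend (0.0833). The cause was not tested. With both strains together, GPM1 did not pass without IMX372 DSE002 (0.43, 0.0571).

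No paired analysis was possible because the deposited columns carry no replicate numbers. Over fits that each leave out 1 library, the genes called ranged from 798 to 1954 (1635 with all) in IMX605 against IMX372, 594 to 1267 (1304) in IMX606, 877 to 2084 (1872) for both strains, and 7 to 96 (11) between IMX605 and IMX606. That last count was 5 without the filter and 7 with only the strains compared. Differences between IMX605 and IMX606 changed sign for TDH3 with quantile normalization (-0.0634) and for both TDH3 and GPM1 in fits without a library (-5.41e-05 to 0.11, and -0.0679 to 0.18). Over those fits GPM1/ENO2 ranged from -0.15 to 0.0115 in IMX605, -0.22 to 0.12 in IMX606, -0.14 to 0.0226 for both and -0.19 to 0.15 between the strains. ENO2/CDC19 (-0.07497 to 0.0210) and TDH3/ENO2 (-0.09488 to 0.0520) changed sign between the strains, and CDC19/PDC1 in IMX606 (-0.62 to 0.12) and between the strains (-0.48 to 0.27).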
